A study of Mus musculus with 8 samples.

Results

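The genes described here are 10 transcripts that report on signalling through ERK, the last kinase of the RAS-RAF-MEK-ERK cascade: Dusp4, Dusp5, Dusp6, Spry2, Spry4, Etv4, Etv5, Fosl1, Egr1 and Phlda1. They were taken by symbol from the 45777 genes of the count tables, and each of the 10 was found once and passed the filter on low counts. The study measured gene expression in 8 bulk libraries of mouse organoids, 3-dimensional epithelial cultures labelled as hepatocellular carcinoma (HCC) related to metabolic dysfunction-associated steatohepatitis (MASH), all labelled with genotype WT. The parental group held 1 library of each of 4 lines, SNU-6621-TO, SNU-6622-TO, SNU-6624-TO and SNU-6625-TO, with control as the treatment label. The lenvatinib group held 1 library each of SNU-6624-TO and SNU-6625-TO labelled as treated with Lenvatinib. The resistant group held 1 library each of SNU-6624-TO-LEN and SNU-6625-TO-LEN, lenvatinib-resistant organoids of the same line numbers, again with control as the treatment label. The labels used here give no dose, no duration and no statement that libraries of a line came from separate cultures or animals. The p-values of the main test measure only how unequally lines SNU-6624-TO and SNU-6625-TO differed between groups. With 1 library per line and group, that spread may be technical.

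Lenvatinib blocks the kinase activity of VEGF and FGF receptors, PDGF receptor alpha, KIT and RET, several of which feed RAS and ERK in epithelial and tumour cells. Active ERK enters the nucleus and induces transcription factors, and it also induces its own inhibitors. The dual-specificity phosphatases remove phosphate from ERK, Sprouty proteins act between receptors and RAS or RAF, and both kinds of transcript are widely used as readouts of pathway output. Transcripts of these genes are not a direct measure of ERK phosphorylation, which was not measured here.

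Total counts per library ran from 49.0 to 61.0 M (megacounts). A level is given in CPM, counts scaled to the total of the library in megacounts, and a count of 3 amounts to 0.0492 to 0.0612 CPM. The 10 genes together held 0.152% to 0.260% of all counts in a library. Albumin (Alb), the defining hepatocyte product, had 0 counts in all 8 libraries. The 8 hepatocyte markers summed to 0.331 to 46.6 CPM in parental, at most 0.0735 CPM in lenvatinib and at most 0.336 CPM in resistant libraries. Of these markers Cyp2e1 reached 2369 counts in a parental library, against at most 71 for Ttr and 20 for Apoa1. Serpina1a, Cyp3a11 and Cps1 had 0 counts in every library, so the parental sum does not reflect the whole list. The 8 biliary and progenitor markers summed to 7237 to 8957 CPM in parental, 2510.4 to 3072 CPM in lenvatinib and 9832 to 12326 CPM in resistant libraries. Fibroblast and stellate markers summed to at most 1.10 CPM and endothelial markers to at most 2.43 CPM. The macrophage and leukocyte list summed to 51.4 to 163 CPM, with its defining members Ptprc, Adgre1 and Lyz2 at 0 in every library. Of the counts, ribosomal RNA genes held 0.0942% to 0.1103% in parental libraries and 0.0411% to 0.0533% in lenvatinib and resistant libraries. Mitochondrially encoded genes held 7.08% to 8.63% in parental libraries and 5.11% to 6.24% in the others, so both measures of library composition separated parental libraries from the rest.

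The regulatory sequence of the phosphatase genes Dusp5 and Dusp6 is shown because Dusp5 was the more variable of the pair across the libraries described below. Of the 10 genes, 4 had entries in the RefSeq promoter table of build GRCm38.p6 (Dusp5, Dusp6, Spry2 and Etv5, the last with 2 start sites), each covering 250 bases before to 50 bases after a gene start. The 150 bases before the start are printed 5′ to 3′ on the gene's strand, chr19:53528995-53529144 on the plus strand for Dusp5 and chr10:99263081-99263230 on the plus strand for Dusp6. Capitals mark CArG boxes, the binding motif of serum response factor, which acts with partner factors that ERK phosphorylates.
Dusp5: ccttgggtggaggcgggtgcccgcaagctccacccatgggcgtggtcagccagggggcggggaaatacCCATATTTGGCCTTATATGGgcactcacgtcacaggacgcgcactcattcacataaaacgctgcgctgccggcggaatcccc
Dusp6: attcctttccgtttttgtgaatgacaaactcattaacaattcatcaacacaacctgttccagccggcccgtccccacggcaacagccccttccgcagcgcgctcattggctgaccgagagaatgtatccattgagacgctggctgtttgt

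The Dusp5 window held 2 adjoining CArG boxes, CCATATTTGG and CCTTATATGG, which begin at positions -82 and -72 relative to the gene start. A CArG box was present in 1.63% of 32851 windows of the table with the same 300 bases, and 2 or more were present in 6 windows, or 0.0183%. Both strands of the 5 windows of the 4 genes were also searched for the Capicua motif TGAATGAA (in 1.30% of all windows), the ETS motif CCGGAAGT (3.89%), the AP-1 motif TGANTCA (7.81%), the cyclic AMP response element TGACGTCA (1.79%) and the EGR motif GCGNGGGCG (5.55%). None of these letter strings was found in them, and no CArG box was found in the windows of Dusp6, Spry2 or Etv5. Other forms of the motifs, which differ by a base or more, were not searched. The search therefore cannot show that binding sites of these factors are absent. A match or its lack describes the letters of the window only.

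In the parental organoids all 10 genes were transcribed well above the counting floor in every line, from 605 counts for Etv5 in line SNU-6625-TO to 57487 counts for Egr1 in line SNU-6621-TO. Per kilobase of exon (GENCODE M21 gene models), the order of mean parental levels was Egr1 at 189 CPM per kb, Phlda1 at 100.4, Dusp6 at 94.9, Dusp5 at 46.0, Dusp4 at 28.2, Etv4 at 17.9, Spry2 at 12.9, Fosl1 at 7.81, Spry4 at 6.02 and Etv5 at 3.58. The ranges over the 4 lines did not overlap between Egr1 and Phlda1, between Dusp6 and Dusp5, or between Dusp5 and Dusp4. Every other pair of neighbours in that order overlapped. The order changed with the groups. In lenvatinib libraries Dusp4, Dusp6 and Dusp5 had means of 92.1, 91.9 and 88.0 CPM per kb, and Etv5 at 9.47 stood above Etv4 at 4.92. In resistant libraries mean Dusp5 came next to mean Egr1 in that order, at 162 against 210.1 CPM per kb. Their ranges overlapped, since SNU-6625-TO-LEN had 205 CPM per kb for Dusp5 and 185 for Egr1. Mean Fosl1 at 48.4 stood above mean Spry2 at 16.1 CPM per kb.

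**Figure D1:**
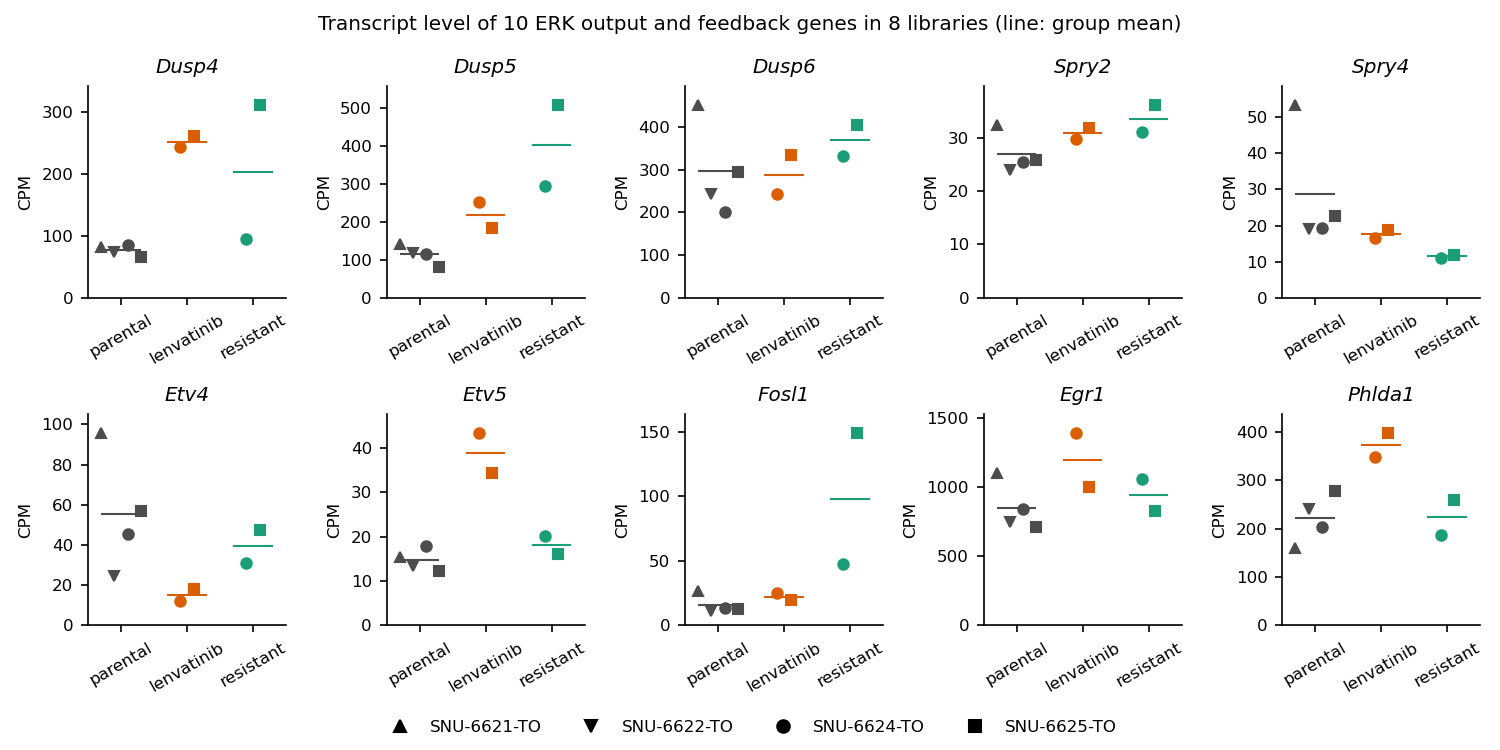
Level of each gene (CPM, linear axes from 0) in the 4 parental, 2 lenvatinib and 2 resistant libraries; each point is 1 library, its shape gives the line and the horizontal bar is the group mean. Dusp4 and Etv5 stand above all 4 parental libraries in both lenvatinib libraries, Etv4 stands below them, and Fosl1 is highest in resistant SNU-6625-TO-LEN at 149 CPM.

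Positions below are in build mm10. The phosphatase genes differ in where their products act. Dusp4 (NCBI gene 319520, chr8:34807610-34819894, 3250 to 18990 counts per library) and Dusp5 (NCBI gene 240672, chr19:53529145-53541809, 3930 to 30897 counts per library) encode nuclear phosphatases, and Dusp6 (NCBI gene 67603, chr10:99263231-99267489, 12089 to 24700 counts per library) encodes the cytoplasmic phosphatase that is selective for ERK. Dusp4 had 82.5, 74.7, 85.0 and 66.3 CPM in parental lines SNU-6621-TO, SNU-6622-TO, SNU-6624-TO and SNU-6625-TO, 243 and 261 CPM in the lenvatinib libraries of lines SNU-6624-TO and SNU-6625-TO, and 95.2 and 311 CPM in their resistant libraries. Both lenvatinib libraries and the resistant library SNU-6625-TO-LEN lay far above every parental library, while resistant SNU-6624-TO-LEN lay close to them. Dusp5 had 141, 118, 116 and 80.2 CPM in the parental lines in the same order, 252 and 183 CPM with lenvatinib and 295 and 506 CPM in resistant libraries. The 3 groups did not overlap for Dusp5. The share of all genes with 3 such separate groups was not counted. Dusp6 had 451, 244, 200.2 and 294 CPM in the parental lines, 242 and 334 CPM with lenvatinib and 333 and 405 CPM in resistant libraries. The highest Dusp6 library of all 8 was parental line SNU-6621-TO, so neither other group stood apart from the parental lines.

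Sprouty genes encode inhibitors of receptor-to-RAS signalling that are themselves induced by ERK. Spry2 (NCBI gene 24064, chr14:105891947-105896819, 1268 to 2201 counts per library) had 32.4, 24.0, 25.4 and 25.9 CPM in the parental lines, 29.8 and 31.9 CPM with lenvatinib and 31.0 and 36.1 CPM in resistant libraries. Its spread was the smallest of the 10 genes, with a root mean square deviation of 0.18 on the log2 scale over the 8 libraries. Spry4 (NCBI gene 24066, chr18:38586247-38601347, 563 to 2788 counts per library) had 53.3, 19.1, 19.4 and 22.6 CPM in the parental lines, 16.6 and 18.8 CPM with lenvatinib and 11.1 and 11.8 CPM in resistant libraries. The groups did not overlap for Spry4: the resistant libraries were lowest, the lenvatinib libraries came between, and parental line SNU-6621-TO stood apart above the rest. How many of all genes separate in this way was not counted.

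The PEA3-type ETS factors Etv4 and Etv5 are transcription factors that FGF and ERK signalling induce in many epithelia. Etv4 (NCBI gene 18612, chr11:101769747-101785310, 701 to 5005 counts per library) had 95.7, 24.8, 45.3 and 56.7 CPM in the parental lines, 12.4 and 18.2 CPM with lenvatinib and 31.0 and 47.6 CPM in resistant libraries. The highest parental level was 3.86 times the lowest, and still both lenvatinib libraries lay below all 4 parental lines. Etv5 (NCBI gene 104156, chr16:22381313-22439570, 605 to 2448 counts per library) had 15.4, 13.3, 17.8 and 12.3 CPM in the parental lines, 43.3 and 34.4 CPM with lenvatinib and 20.1 and 16.0 CPM in resistant libraries. Both lenvatinib libraries lay above all 6 others for Etv5, in the opposite direction to Etv4.

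Fosl1 encodes FRA-1, an AP-1 subunit whose transcript and protein both depend on sustained ERK activity, and Egr1 is an immediate-early zinc finger factor. Fosl1 (NCBI gene 14283, chr19:5447698-5455938, 612 to 9098 counts per library) had 26.5, 11.2, 13.3 and 12.5 CPM in the parental lines, 24.9 and 19.7 CPM with lenvatinib and 47.5 and 149 CPM in resistant libraries. Both resistant libraries lay above all others. The lenvatinib libraries lay within the parental range only through line SNU-6621-TO, and above the other parental lines, their own included. Its gene overlaps Ccdc85b on the other strand, and the counting's strand setting is not given in the sources used here. Reads of the pair therefore cannot be told apart with certainty. Ccdc85b had 1109 and 1020 counts in parental lines SNU-6624-TO and SNU-6625-TO, 2298 and 2178 with lenvatinib and 1049 and 2229 in resistant libraries, against 2403 and 9098 counts of Fosl1 in the resistant pair. Egr1 (NCBI gene 13653, chr18:34861207-34864956, 34868 to 78637 counts per library) had 1099, 748, 838 and 711 CPM in the parental lines, 1390.4 and 1003 CPM with lenvatinib and 1056 and 828 CPM in resistant libraries. It was the most abundant of the 10 genes in every group. Its resistant libraries overlapped both other groups, and its lenvatinib libraries overlapped the parental lines once all 4 were included.

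Phlda1 encodes a pleckstrin homology-like domain protein whose transcript growth factors induce and which is used in transcript signatures of MEK and ERK output. Phlda1 (NCBI gene 21664, chr10:111506286-111508649, 8414 to 21668 counts per library) had 161, 241, 204 and 279 CPM in the parental lines, 349 and 398 CPM with lenvatinib and 188 and 260.3 CPM in resistant libraries. The lenvatinib libraries were the highest, and resistant and parental libraries overlapped.

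The comparison of lenvatinib with parental libraries of lines SNU-6624-TO and SNU-6625-TO addresses how transcript levels differed with the drug within a line. The 10 genes did not all differ in the same direction: Etv4 fell 3.58-fold, Etv5 rose 2.46-fold, and the other 8 were not called. A gene was called at an adjusted p under 0.05 in the quasi-likelihood F test of edgeR with Benjamini-Hochberg adjustment over 17038 genes. By that rule 2 of 10 genes were called, against 5.78% of all genes tested (1.70% higher and 4.08% lower). Because these are bulk libraries, a transcript carried by fewer cells and one present at less RNA per cell cannot be told apart.

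The 2 called genes are the closely related ETS factors, and they went in opposite directions. Etv4 averaged 51.0 ± 8.07 CPM in parental and 15.3 ± 4.08 CPM in lenvatinib libraries (mean and SD of n = 2 lines each). Its log2 fold change was -1.84 with a standard error (SE) of 0.19 (edgeR adjusted p = 0.0356), with -1.92 in line SNU-6624-TO and -1.75 in line SNU-6625-TO. Etv5 averaged 15.0 ± 3.82 CPM in parental and 38.9 ± 6.25 CPM in lenvatinib libraries. Its value was 1.30 (SE 0.19, edgeR adjusted p = 0.0429), with 1.23 and 1.37 in the same lines. The per-line values of each gene were close to each other, and neither gene's lenvatinib libraries overlapped any of the 4 parental lines.

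The other 8 genes had larger errors or smaller differences, and most values were above 0. Among the phosphatases, the log2 value was 1.62 for Dusp4 (SE 0.60, edgeR adjusted p = 0.153), 1.07 for Dusp5 (SE 0.45, edgeR adjusted p = 0.185) and 0.15 for Dusp6 (SE 0.17, edgeR adjusted p = 0.592). Per line, Dusp4 had 1.46 and 1.87 and Dusp5 had 1.07 and 1.08, so the 2 lines gave like values. The Sprouty pair had values of opposite sign, neither of them called, with 0.19 (SE 0.18) for Spry2 and -0.33 (SE 0.18) for Spry4 (edgeR adjusted p = 0.521 and 0.287). Phlda1 had 0.57 (SE 0.21, edgeR adjusted p = 0.153), Egr1 0.54 (SE 0.24, edgeR adjusted p = 0.204) and Fosl1 0.73 (SE 0.59, edgeR adjusted p = 0.444). At an unadjusted p under 0.05 the genes past the threshold were Dusp4, Etv4, Etv5 and Phlda1, 4 of 10 against 31.8% of all genes. The median log2 fold change of the 10 genes was 0.55 and that of all genes tested -0.01.

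On plain CPM, the lenvatinib libraries lay above all 4 parental lines for Dusp4, Dusp5, Etv5 and Phlda1, 4 of 10 against 30.9% of all genes. They lay below all 4 for Spry4 and Etv4, 2 of 10 against 21.4% of all genes. DESeq2 also called Dusp4 (adjusted p = 0.0207) beside Etv4 and Etv5, which makes 3 of 10 against 22.4% of its genes. Etv4 and Etv5 alone were called by limma-trend (8.83% of all genes) and limma-voom (9.96%). Without the line term Etv5 missed the threshold (edgeR adjusted p = 0.0558), which left 1 of 10 against 6.18% of all genes, and with no filter on low counts it missed it as well (edgeR adjusted p = 0.0617), 1 of 10 against 0.700%. The calls also differed with the libraries in the fit. When any 1 of the 4 parental and lenvatinib libraries was left out, no gene of the table was called by edgeR, Etv4 ranged from -1.66 to -2.01 with adjusted p up to 0.288, and Etv5 went no lower than 1.16 with adjusted p up to 0.372. In a fit to only the 4 libraries compared, 7 of the 10 genes were called (Dusp4, Dusp5, Etv4, Etv5, Fosl1, Egr1 and Phlda1), against 48.3% of all genes, and the same 7 were called when resistant SNU-6624-TO-LEN or resistant SNU-6625-TO-LEN was left out (43.3% and 43.7% of all genes).

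Other measures moved with the same contrast. The median of the 15 proliferation genes was -4.30 on the log2 scale, and 3 of them (Tk1, Birc5 and Foxm1) were called lower, against 4.08% of all genes. Mki67, the nuclear antigen of cycling cells, had 12767 and 11437 counts in parental and 84 and 105 counts in lenvatinib libraries. The stress enzyme gene Hmox1 had 30.3 and 22.1 CPM in parental and 787 and 377 CPM in lenvatinib libraries. Their part in the values of the 10 genes, and that of the ribosomal and mitochondrial shares and the hepatocyte and the biliary and progenitor sums given above, was not tested. A difference in preparation between parental and all other libraries cannot be told apart from the groups where lenvatinib and resistant libraries moved together.

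**Figure D2:**
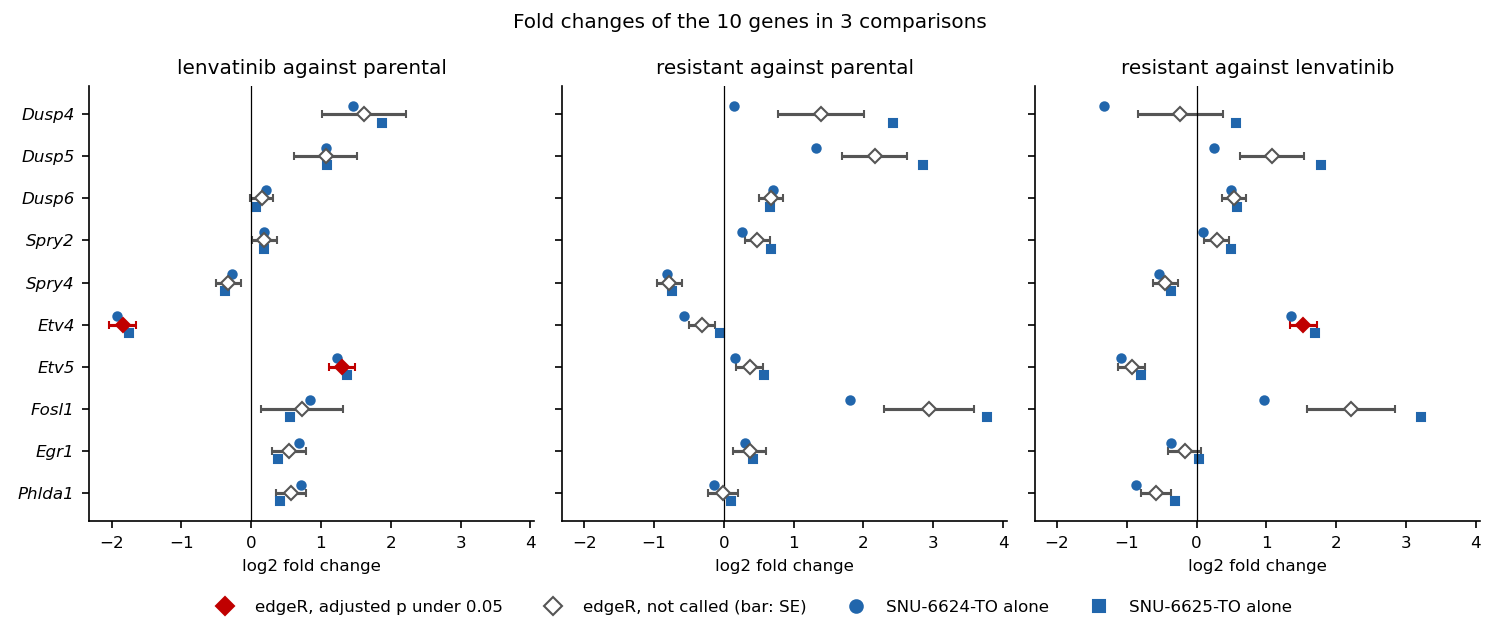
Log2 fold changes of the 10 genes in 3 comparisons: diamonds are the edgeR values with bars of 1 SE (red where the adjusted p is under 0.05), circles and squares the ratios of lines SNU-6624-TO and SNU-6625-TO alone. Only Etv4 and Etv5 were called, the lines gave like values for them, and the lines lie far apart for Dusp4 (0.14 and 2.43), Dusp5 and Fosl1 in resistant against parental libraries.

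The comparison of resistant with parental libraries addresses what distinguishes the organoids labelled resistant, and it shares its parental libraries with the comparison above. No gene of the 17038 was called by edgeR, so none of the 10 was (0% of all genes), and the values below are sizes with their errors. The largest log2 fold changes were those of Fosl1, at 2.94 (SE 0.65, edgeR adjusted p = 0.247), and Dusp5, at 2.16 (SE 0.47, edgeR adjusted p = 0.247). Mean levels (± SD over the 2 lines) were 12.9 ± 0.607 CPM in parental and 98.3 ± 71.8 CPM in resistant libraries for Fosl1, and 98.0 ± 25.2 and 400.4 ± 149.6 CPM for Dusp5. The resistant libraries of both genes lay above all 4 parental lines.

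The lines lay far apart for 3 of the genes. In line SNU-6624-TO the log2 ratio of resistant to parental was 1.81 for Fosl1, 1.32 for Dusp5 and 0.14 for Dusp4, and in line SNU-6625-TO it was 3.77, 2.86 and 2.43. Line SNU-6625-TO was thus higher for all 3, and Dusp4 in line SNU-6624-TO was close to no difference. For Dusp4 the fitted value was 1.39 (SE 0.62, edgeR adjusted p = 0.357). Dusp6 was even across lines, with 0.71 and 0.66 and a fitted value of 0.68 (SE 0.17, edgeR adjusted p = 0.248). Spry4 was even as well, with -0.82 and -0.74 and a fitted value of -0.78 (SE 0.18, edgeR adjusted p = 0.247), while Spry2 had 0.48 (SE 0.18, edgeR adjusted p = 0.316).

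The ETS factors had smaller values in this comparison, with -0.31 (SE 0.19) for Etv4 and 0.37 (SE 0.19) for Etv5 (edgeR adjusted p = 0.443 and 0.387). Egr1 had 0.37 (SE 0.24, edgeR adjusted p = 0.465). Phlda1 had -0.01 (SE 0.21, edgeR adjusted p = 0.976), and its sign differed between the lines, with -0.14 in line SNU-6624-TO and 0.10 in line SNU-6625-TO. At an unadjusted p under 0.05, Dusp5, Dusp6, Spry4 and Fosl1 passed, 4 of 10 against 15.9% of all genes. The median of the 10 was 0.42 against -0.01 for all genes.

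On plain CPM, the resistant libraries lay above all 4 parental lines for Dusp4, Dusp5 and Fosl1, 3 of 10 against 10.3% of all genes, and below all 4 for Spry4, 1 of 10 against 15.1%. With TMM scaling Etv5 also lay above all 4, which makes 4 of 10 against 13.7% of all genes. DESeq2 called Dusp5, Dusp6, Spry4 and Fosl1, 4 of 10 against 7.02% of its genes, with adjusted p of 0.000148 for Dusp5, 0.0144 for Dusp6 and 3.25e-05 for Fosl1 and a value just under the threshold for Spry4. Neither limma-trend nor limma-voom called any gene. Leaving out a resistant library raised the number of calls, with the lone resistant library then assumed to vary like the other groups. Without resistant SNU-6624-TO-LEN, Dusp4, Dusp5, Dusp6, Spry2, Spry4, Etv5 and Fosl1 were called by edgeR, 7 of 10 against 32.3% of all genes. Without resistant SNU-6625-TO-LEN, Dusp5 at 1.32 and Fosl1 at 1.73 were called (edgeR adjusted p = 0.0212 for each), 2 of 10 against 3.26% of all genes. None of the 15 proliferation genes was called, and they were unequal between the lines, with a median log2 ratio to parental of -1.78 in line SNU-6624-TO and -5.64 in line SNU-6625-TO and with 1970 and 17 counts of Mki67. The part of this difference between lines in the values of Dusp4, Dusp5 and Fosl1 was not tested.

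The comparison of resistant with lenvatinib libraries sets resistant organoids under the control label beside drug-treated organoids of the same lines. Etv4 was the single called gene of the 10, 2.89-fold higher in resistant libraries, against 6.23% of all genes called (4.14% higher and 2.08% lower). Its mean was 15.3 ± 4.08 CPM with lenvatinib and 39.3 ± 11.8 CPM in resistant libraries. The log2 fold change was 1.53 (SE 0.19, edgeR adjusted p = 0.0363), with 1.35 in line SNU-6624-TO and 1.70 in line SNU-6625-TO. Etv5 had the opposite sign and missed the threshold, at -0.93 (SE 0.19, edgeR adjusted p = 0.0601), with -1.08 and -0.80 in the lines. This comparison shares its lenvatinib libraries with that against parental, and the low level of Etv4 in those libraries enters both.

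Of the remaining genes, Fosl1 had the largest value, 2.21 (SE 0.63, edgeR adjusted p = 0.104), made of 0.96 in line SNU-6624-TO and 3.22 in line SNU-6625-TO. Dusp5 had 1.08 (SE 0.46, edgeR adjusted p = 0.198), made of 0.25 and 1.78, and Dusp6 had 0.54 (SE 0.17, edgeR adjusted p = 0.126), made of 0.49 and 0.58. The lines were close for Dusp6 only among these. Dusp4 had -0.23 (SE 0.61, edgeR adjusted p = 0.830), with the lines on opposite sides at -1.32 and 0.56. Phlda1 had -0.58 (SE 0.21), Spry4 -0.45 (SE 0.18), Spry2 0.29 (SE 0.18) and Egr1 -0.17 (SE 0.24), with edgeR adjusted p of 0.155, 0.187, 0.345 and 0.672.

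On plain CPM, resistant libraries lay above both lenvatinib libraries for Dusp5, Etv4 and Fosl1, 3 of 10 against 22.3% of all genes, and below for Spry4, Etv5 and Phlda1, 3 of 10 against 36.4%. With TMM scaling Dusp6 and Spry2 also lay above, which makes 5 of 10 against 28.4% of all genes, and the 3 lower genes stood against 28.8%. DESeq2 called Dusp6, Etv4, Etv5 and Fosl1, 4 of 10 against 23.7% of its genes. Etv4 alone was called by limma-trend (7.73% of all genes), and Etv4 and Etv5 by limma-voom (9.31%). At an unadjusted p under 0.05 in edgeR, Dusp6, Etv4, Etv5, Fosl1 and Phlda1 passed, 5 of 10 against 30.4% of all genes. Etv4 missed the threshold in edgeR without the line term (adjusted p = 0.0563, 0 of 10 against 6.57% of all genes), with no filter (adjusted p = 0.0514, against 1.30%) and with only the 4 libraries compared (adjusted p = 0.0642, against 1.45%). Etv5 was called beside Etv4 in edgeR with scaling by library size (adjusted p = 0.0430, 2 of 10 against 7.39%) and with a filter of 5 CPM in 2 libraries (adjusted p = 0.0415, against 14.9%).

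When either lenvatinib library was left out, edgeR called no gene of the table, and without parental line SNU-6624-TO or SNU-6625-TO it called 90 and 118 genes. Without resistant SNU-6624-TO-LEN it called 34.9% of all genes and 7 of the 10, and without resistant SNU-6625-TO-LEN 33.0% and 6 of the 10. Of these, Etv4 (1.75 and 1.30), Etv5 (-0.75 and -1.11), Fosl1 (3.16 and 1.03) and Dusp6 (0.56 and 0.52) were called in both fits with the same sign. Dusp4 was called in both with opposite signs, at 0.67 (edgeR adjusted p = 0.0316) and -1.43 (edgeR adjusted p = 0.00400). Dusp5 and Spry2 were called in the former alone and Phlda1 in the latter alone. Scaling by library size alone moved the median of all genes in this comparison by 0.16 on the log2 scale, from 0.02 to -0.14, and no value of the 10 genes changed sign under it.

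Ratios between related genes within a library do not depend on how libraries are scaled, and they are given as a description. Per kilobase, Etv5 stood at 0.122, 0.405, 0.297 and 0.165 times Etv4 in parental lines SNU-6621-TO, SNU-6622-TO, SNU-6624-TO and SNU-6625-TO. The ratio was 2.64 and 1.43 in lenvatinib libraries of lines SNU-6624-TO and SNU-6625-TO and 0.491 and 0.254 in resistant libraries. Etv5 therefore exceeded Etv4 in both lenvatinib libraries and in no other library. Spry4 stood at 0.722, 0.350, 0.335 and 0.384 times Spry2 in the parental lines, at 0.244 and 0.259 with lenvatinib and at 0.158 and 0.144 in resistant libraries. This ratio fell into 3 ranges that did not overlap, in the order parental, lenvatinib, resistant. How often other gene pairs give such an order was not counted.

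The phosphatase ratios were less ordered. Dusp4 stood at 0.209 to 0.485 times Dusp6 in the parental lines, at 1.15 and 0.895 with lenvatinib and at 0.327 and 0.879 in SNU-6624-TO-LEN and SNU-6625-TO-LEN. The resistant libraries were thus split, with line SNU-6624-TO inside the parental range and line SNU-6625-TO close to the lenvatinib libraries. Dusp5 stood at 0.345 to 0.733 times Dusp6 in the parental lines, at 1.32 and 0.693 with lenvatinib and at 1.12 and 1.58 in resistant libraries. Dusp5 exceeded Dusp6 in both resistant libraries, in the lenvatinib library of line SNU-6624-TO and in no parental library.

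**Figure D3:**
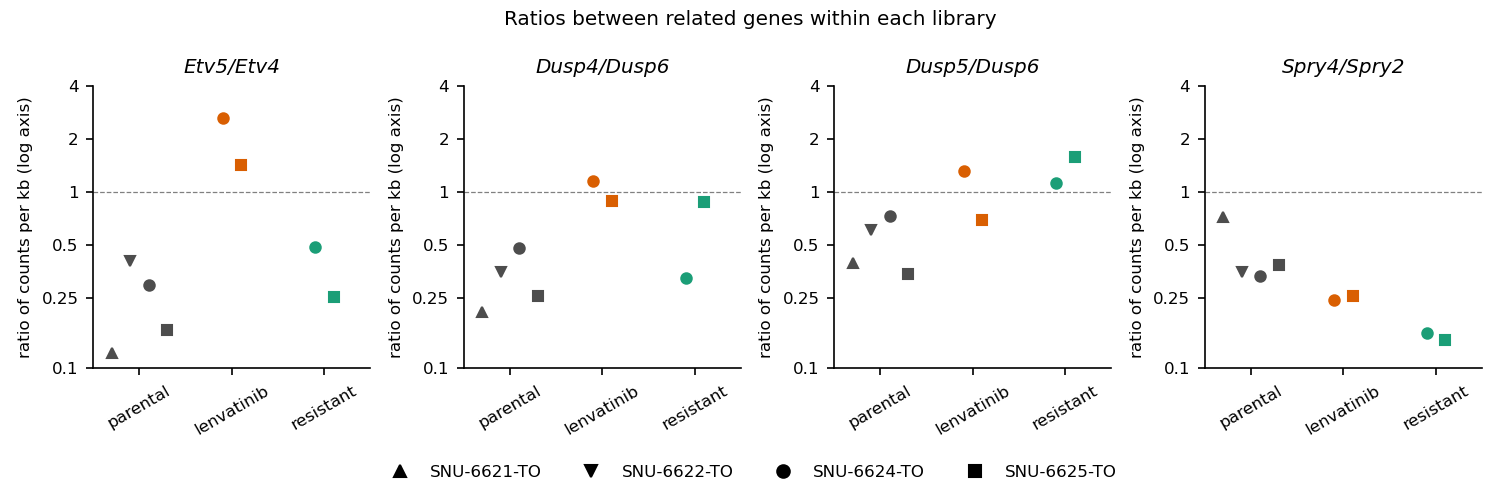
Ratio of counts per kilobase between related genes within each library (log axis, dashed line at 1); each point is 1 library and its shape gives the line. Etv5/Etv4 exceeds 1 only in the 2 lenvatinib libraries, at 2.64 and 1.43, and Spry4/Spry2 is lowest in the resistant libraries, at 0.158 and 0.144.

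The rest of the pathway was read from 3 lists of other genes. The lists were chosen with earlier results of these data known, so their counts and medians are a description. The 26 genes of the cascade itself, from the receptor gene Egfr and the adaptor and exchange factor genes Grb2 and Sos1 to the kinase gene Mapk3, were mostly not called. With lenvatinib none of the 26 was called, against 5.78% of all genes. Their median log2 fold change was 0.11 against -0.01 for all genes. The largest values were those of Mapk3, which encodes ERK1, at -1.03 (SE 0.20, edgeR adjusted p = 0.0589), and of the ERK substrate kinase gene Rps6ka1 at -0.92 (SE 0.18, edgeR adjusted p = 0.0628). In resistant against parental libraries the median was 0.24, and the 2 largest values were 1.37 for Egfr (SE 0.47) and 1.24 for the scaffold gene Ksr1 (SE 0.35). Egfr had 71.4 and 66.8 CPM in parental lines SNU-6624-TO and SNU-6625-TO and 98.9 and 269.9 CPM in their resistant libraries, and line SNU-6625-TO was again the higher. Between resistant and lenvatinib libraries the exchange factor gene Sos1 was called lower, at 132 and 121 CPM with lenvatinib against 54.8 and 48.7 CPM (edgeR adjusted p = 0.0380). The other 25 were not called, and the share called of all genes was 6.23% (2.08% lower). With so few genes, these counts do not set the cascade apart from all genes.

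Of 21 genes listed as other feedback inhibitors 19 were tested. The list takes inhibitors in a broad sense, and whether ERK induces each of them was not tested. Its counts and medians are therefore not a measure of ERK feedback alone. Spry3 was not among the listed genes, and Dusp2 had at most 6 counts in a library. With lenvatinib 2 of 19 were called lower and none higher, against 4.08% and 1.70% of all genes, with a median of -0.21 against -0.01 for all genes. The 2 were the RAS GTPase-activating protein gene Rasal1, at -2.42 (SE 0.37, edgeR adjusted p = 0.0450), and Pea15a, whose product holds ERK in the cytoplasm, at -0.98 (SE 0.17, edgeR adjusted p just under the threshold). Between resistant and lenvatinib libraries 3 of 19 (Dusp10, Rasal1 and Pea15a) were called higher and none lower, against 4.14% and 2.08% of all genes, with a median of 0.80 against 0.02 for all genes. Dusp10 encodes a phosphatase that acts on JNK and p38 more than on ERK. It had 30.4 and 29.2 CPM in parental lines SNU-6624-TO and SNU-6625-TO, 10.4 and 13.6 CPM with lenvatinib and 87.8 and 211 CPM in resistant libraries. Its log2 value over lenvatinib was 3.75 (SE 0.45, edgeR adjusted p = 0.0343). Against parental libraries none of the 19 was called, with a median of 0.63 and the largest values at Dusp10, 2.31 (SE 0.42), and the FGF receptor antagonist gene Il17rd, 1.79 (SE 0.41).

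Of 40 genes listed as other ERK-induced transcription 39 were tested, since Rgs16 did not pass the filter with at most 124 counts. The list also holds genes of transcription regulators such as Elk1, Elk3, Elk4, Nab1 and Cic. Whether ERK induces each listed gene was not tested, so the counts below are not of ERK-induced genes alone. With lenvatinib 2 of 39 were called lower and none higher, near the 4.08% and 1.70% of all genes, with a median of -0.25 against -0.01 for all genes. These were the serum response factor partner gene Elk3 at -1.96 (SE 0.15, edgeR adjusted p = 0.0274) and the membrane protein gene Emp1 at -2.13 (SE 0.30, edgeR adjusted p = 0.0422). In resistant against lenvatinib libraries 8 were called higher and none lower, against 4.14% and 2.08% of all genes, with a median of 0.95 against 0.02 for all genes. Among them Elk3 had 2.33 (SE 0.15), Trib1, a pseudokinase gene, 2.22 (SE 0.26) and the serum response factor gene Srf 1.58 (SE 0.19), with edgeR adjusted p of 0.0174, 0.0339 and 0.0363. The zinc finger factor gene Egr3 had 34.7 and 21.0 CPM with lenvatinib and 118 and 88.4 CPM in resistant libraries (edgeR adjusted p = 0.0316). Srf had 89.7 and 75.2 CPM in parental lines SNU-6624-TO and SNU-6625-TO, 76.7 and 61.7 CPM with lenvatinib and 186 and 178 CPM in resistant libraries. Its resistant libraries lay above all 6 others. Its product binds the CArG box, the motif capitalised in the Dusp5 sequence above. A link between the levels of Srf and Dusp5 was not tested. In resistant against parental libraries none of the 39 was called, with a median of 0.48 and the largest values at Ets1, 2.79 (SE 0.80), and Hmga2, 2.51 (SE 0.82).

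Fos, the immediate-early partner of JUN proteins in AP-1, is a relative of Fosl1 and had a log2 value of -0.94 with lenvatinib (SE 0.36, edgeR adjusted p = 0.159) and -0.60 in resistant against parental libraries (SE 0.36, edgeR adjusted p = 0.444). Fos had 1558 and 1546 CPM in parental lines SNU-6624-TO and SNU-6625-TO, 958 and 782 CPM with lenvatinib and 1537 and 594 CPM in resistant libraries. In resistant SNU-6625-TO-LEN, where Fosl1 was highest at 149 CPM, Fos was the lowest of the 8 libraries.

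**Figure D4:**
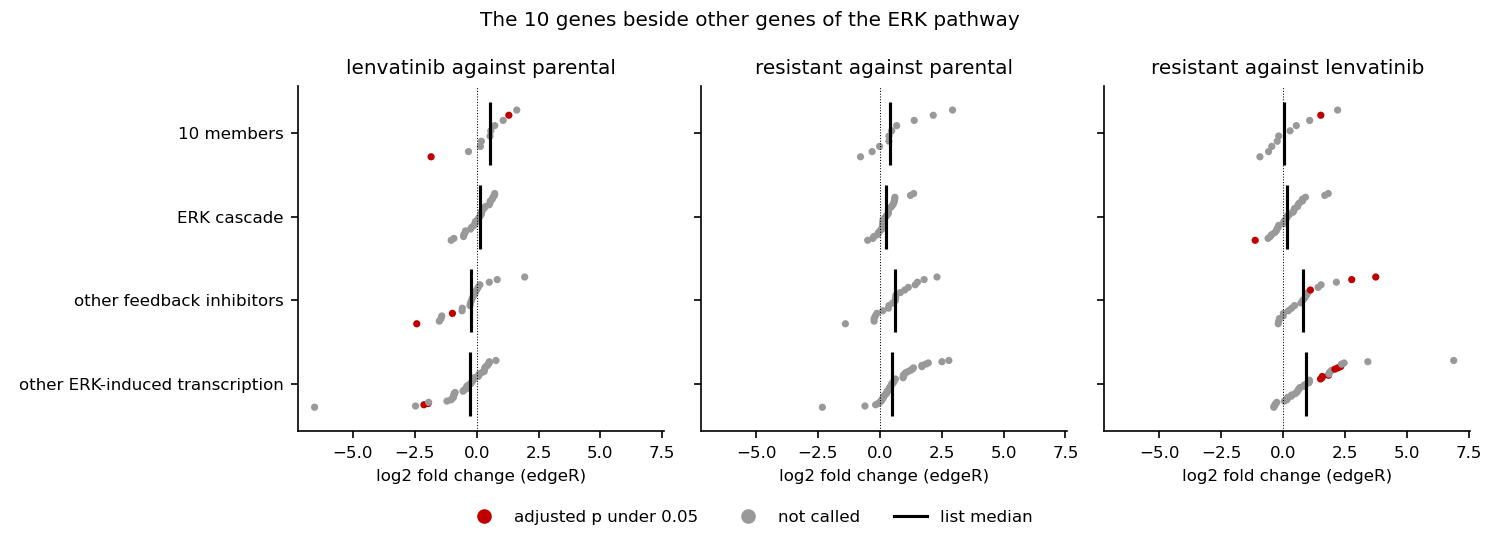
Log2 fold changes (edgeR, horizontal axis) of the 10 genes and of 3 lists of other pathway genes in 3 comparisons; each point is 1 gene, red where the adjusted p is under 0.05, and the black bar is the list median. In resistant against lenvatinib libraries 8 of 39 genes listed as other ERK-induced transcription were called higher. The list median was 0.95 against 0.06 for the 10 genes. The lists were chosen with earlier results of these data known.

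The genes most like each of the 10 were found by the smallest root mean square difference between patterns of log2(CPM + 1) over the 8 libraries, each centred on its mean, among 11855 genes. The 8 libraries share lines and groups, so these distances are a description. For Dusp5, with its own deviation of 0.80, the nearest genes were the tight junction gene Cldn4 at 0.10 and the kinase gene Plk2 at 0.19. Cldn4 had 260.0 and 218 CPM in parental lines SNU-6624-TO and SNU-6625-TO, 606 and 517 CPM with lenvatinib and 743 and 1319.9 CPM in resistant libraries, which repeats the order of Dusp5. For Dusp4 (own deviation 0.86) they were Cst6 at 0.17 and Cd300lb at 0.19. For Etv5 (0.58) they were the replication origin gene Orc2 at 0.10 and the asparaginyl-tRNA synthetase gene Nars at 0.12, and for Etv4 (0.86) the mitochondrially encoded gene ND3 at 0.23 and Afap1l1 at 0.24. For Fosl1 (1.13) they were Rfx2 at 0.28 and Gprc5b at 0.29, farther off than for any other of the 10.

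For the other 5 genes the nearest were Cyb5d1 and Coq4 for Dusp6, Cdc37 and Snx9 for Spry2, Cpd and Ccpg1os for Spry4, Prdm4 and Rnf216 for Egr1, and Mogs and Tspan17 for Phlda1, at distances from 0.07 to 0.19. Among the 10 genes themselves the closest pair was Dusp6 and Spry2 at 0.25, Dusp5 lay nearest to Fosl1 at 0.50, and Etv4 lay nearest to Spry4 at 0.74. The distance is small between genes that vary little. For Dusp6 and Spry2 it exceeded Spry2's own deviation of 0.18, so it does not show a shared pattern.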

How the data were processed

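The deposited files gave raw read counts, as whole numbers, for 45777 genes in each of 8 libraries, per the file headers. Libraries were made with a TruSeq Stranded mRNA kit from Trizol and RNeasy extracts, per the labels' protocols. The submitters' processing notes name build mm10, the aligners HISAT2 2.1.0 and Bowtie2 2.3.4.1, StringTie 2.1.3b, and for read quality and trimming FastQC 0.11.7 and Trimmomatic 0.38. How reads were counted and with which strand setting is not given in the sources used here. No 2 libraries held identical values. Floors cover counting error only.

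The test was edgeR 4.0.16 (R 4.3.3), quasi-likelihood F, on the 6 libraries of lines SNU-6624-TO and SNU-6625-TO with terms for group and for line, TMM scaling, the tool's filter on low counts (17038 genes kept) and Benjamini-Hochberg adjustment, with 2 residual and 2.53 prior degrees of freedom (biological coefficient of variation 0.336). The SE is the log2 fold change over the square root of F. Line was a block because each group held the same 2 lines. Deviations of libraries of a line correlated at 0.504 (parental, lenvatinib), 0.288 (parental, resistant) and 0.290 (lenvatinib, resistant). Per-line ratios used log2 CPM with a prior count of 2, with no test. Positions came from RefSeq (GRCm38.p6, the assembly of mm10), matched by gene identifier, exon lengths from GENCODE M21, and promoters from RefSeq, with 4 of 10 genes matched.

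The members and lists were chosen with earlier results of these data known. All 10 members were named, with up to 4 called genes of each list per comparison (or the 2 largest where none was called) and the 2 genes nearest each member, predicted genes left out. Cldn4, Egfr and Fos values and the promoters printed were picked after their values were seen. Alternatives were no line block, DESeq2 1.42.0, limma 3.58.1 (trend on log2(CPM + 1), voom), other scaling, no filter or 5 CPM in 2 libraries, all 8 libraries, only the 4 libraries compared, and each library left out. The steps were also run on simulated data, drawn with no difference between lines and with changes in the lenvatinib group alone. That setting differs from these libraries, and its outcome is not used here as support.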

Additional observations from a re-analysis of the deposited data

Results flagged for a closer look

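In the parental group, line SNU-6621-TO stood apart from the other 3 lines for Spry4, at 53.3 CPM, and for Fosl1, at 26.5 CPM. The gap to the next line over the whole range was 0.898 and 0.859, both above the critical value of Dixon's test. Chance gives such a gap in about 5% of groups, and 10 genes were examined. The share of all genes with such a gap in this line was not counted. Spry4 and Fosl1 therefore cannot be set apart from a divergence of the line as a whole. This line has no lenvatinib or resistant library and entered a test only in the alternative fit to all 8 libraries.

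Between the lines, 3 values pointed in opposite directions, and the differences between lines were not tested, since each line had 1 library per group. Phlda1 in resistant against parental libraries had a log2 ratio of -0.14 in line SNU-6624-TO and 0.10 in line SNU-6625-TO. Dusp4 in resistant against lenvatinib libraries had -1.32 in line SNU-6624-TO and 0.56 in line SNU-6625-TO. Egr1 in the same comparison had -0.37 in line SNU-6624-TO and 0.03 in line SNU-6625-TO. Opposite signs in the 2 lines were found for 36.7% of all genes in resistant against parental libraries and for 31.1% in resistant against lenvatinib libraries.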

How the results depend on the processing

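Every other setting kept the sign of the 10 genes, leaving out single libraries aside, except for Phlda1 in resistant against parental libraries (0.00 without the replicate block). In lenvatinib against parental libraries, where edgeR called 985 genes and 2 of the 10, DESeq2 called 3669 genes, limma-trend 1505, limma-voom 1697, the fit with no filter 174 and 1 of the 10, and the fit to only the 4 libraries compared 7942 and 7 of the 10. The fit without the replicate block called 1 of the 10, since Etv5 had an adjusted p of 0.0558. In resistant against parental libraries, where edgeR called 0 genes (2715 at an unadjusted p under 0.05), DESeq2 called 1104 genes and 4 of the 10, and limma-trend and limma-voom called none of the 10. In resistant against lenvatinib libraries, with 1061 genes and 1 of the 10, DESeq2 called 3569 and 4, no filter 324 and 0, the filter of 5 CPM 1660 and 2, only the 4 libraries 234 and 0, limma-voom 2 of the 10, library size alone 2, and the fit without the replicate block 0 (Etv4 adjusted p 0.0563). Leaving out each library in turn gave 0 to 7798 genes and 0 to 7 of the 10 with lenvatinib against parental, 0 to 5819 and 0 to 7 for resistant against parental, and 0 to 6286 and 0 to 7 for resistant against lenvatinib. Signs changed in the following ranges: Fosl1 with lenvatinib from -0.03 (without lenvatinib line SNU-6624-TO) to 1.24, Phlda1 in resistant against parental from -0.22 to 0.17 (without resistant SNU-6624-TO-LEN), Dusp4 in resistant against lenvatinib from -1.43 to 0.67 (0.10 without lenvatinib line SNU-6624-TO), and Egr1 there from -0.31 to 0.01. The cause of these differences was not tested. With 2 libraries a group the spread rests on few degrees of freedom. Counts of the 10 genes were at least 563 in every library, and the part of depth was not tested.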
